A study of Homo sapiens with 8 samples.

Results

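The genes described here belong to the NRF2 program and to the glutathione, thioredoxin and NADPH systems that it feeds. Their 36 members were chosen by name and role, with earlier results of these data known, and 34 of them had a named probe set among the 19775 genes compared. FTH1 and NR0B1 were not analysed here. Where a gene had several probe sets, the brightest by its mean over the 8 arrays stood for it. The cells were H460, an established human line of non-small-cell lung carcinoma that carries a mutated KEAP1. In the resistant group, 4 arrays held H460 cells with acquired TRAIL resistance, obtained by daily exposure to the death ligand TRAIL for 6 months. In the sensitive group, 4 arrays held TRAIL-sensitive H460 cells labelled as the control. The same treatment text stands on the samples of both groups, so the sensitive cells are called control after their own labels only. Both groups were grown in RPMI medium with serum, and the labels do not say whether the resistant cells were a pool or a clone, or when they last met TRAIL. Resistance, TRAIL exposure and time in culture therefore cannot be told apart.

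NRF2, encoded by NFE2L2, is a transcription factor that binds antioxidant response elements together with a small MAF protein. KEAP1 is the adaptor that hands NRF2 to the CUL3 ubiquitin ligase for degradation, and electrophiles or KEAP1 mutation release NRF2 from this control. Its targets detoxify quinones and aldehydes, make and recycle glutathione and thioredoxin, handle haem and iron, and supply the NADPH that these reductions consume. Lung carcinomas with mutated KEAP1 are known for high expression of this program.

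In resistant cells the program was lower in many of its parts, and its controller genes moved in opposite directions. NFE2L2 was lower and KEAP1 higher, and the largest falls were those of EPHX1, BLVRB, PTGR1, CYP4F11 and PIR. HMOX1, CBR1 and CES1 went the other way, and NQO1, TXNRD1, TXN and GCLM were among the members not called. In RNA of whole cultures, fewer expressing cells and less RNA per cell cannot be told apart. By limma with Benjamini-Hochberg adjustment over all genes (adjusted p below 0.05), 17 of the 34 members fell (50%), where 15.6% of all genes fell. Since the members were chosen with earlier results known, these shares are a description. Another 5 rose, a share of 14.7% that equals the 14.7% of all genes that rose, and 12 were not called. By unadjusted limma p below 0.05, 22 members were lower and 6 higher, where 20.7% and 18.7% of all genes were. Estimates lay below 0 for 26 of the 34 members, where those of 52.5% of all genes did. Called members in either direction were thus 22 of 34, where 30.3% of all genes were called. The median change of the members was -0.34 on the log2(signal + 1) scale, resistant minus sensitive, and that of all genes was -0.03. All 4 resistant arrays lay below all 4 sensitive arrays for 21 of the 34 members, against 17.4% of all genes. They lay above them for 6 members, against 16.5% of all genes. Of the 34 members, 4 passed and were at least 2-fold lower, where 4.64% of all genes were. Only 1 passed and was at least 2-fold higher, where 3.12% of all genes were. Changes are given as resistant minus sensitive ± SE, with 4 arrays in each group. Every adjusted p comes from this limma fit unless another is named.

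**Figure D1:**
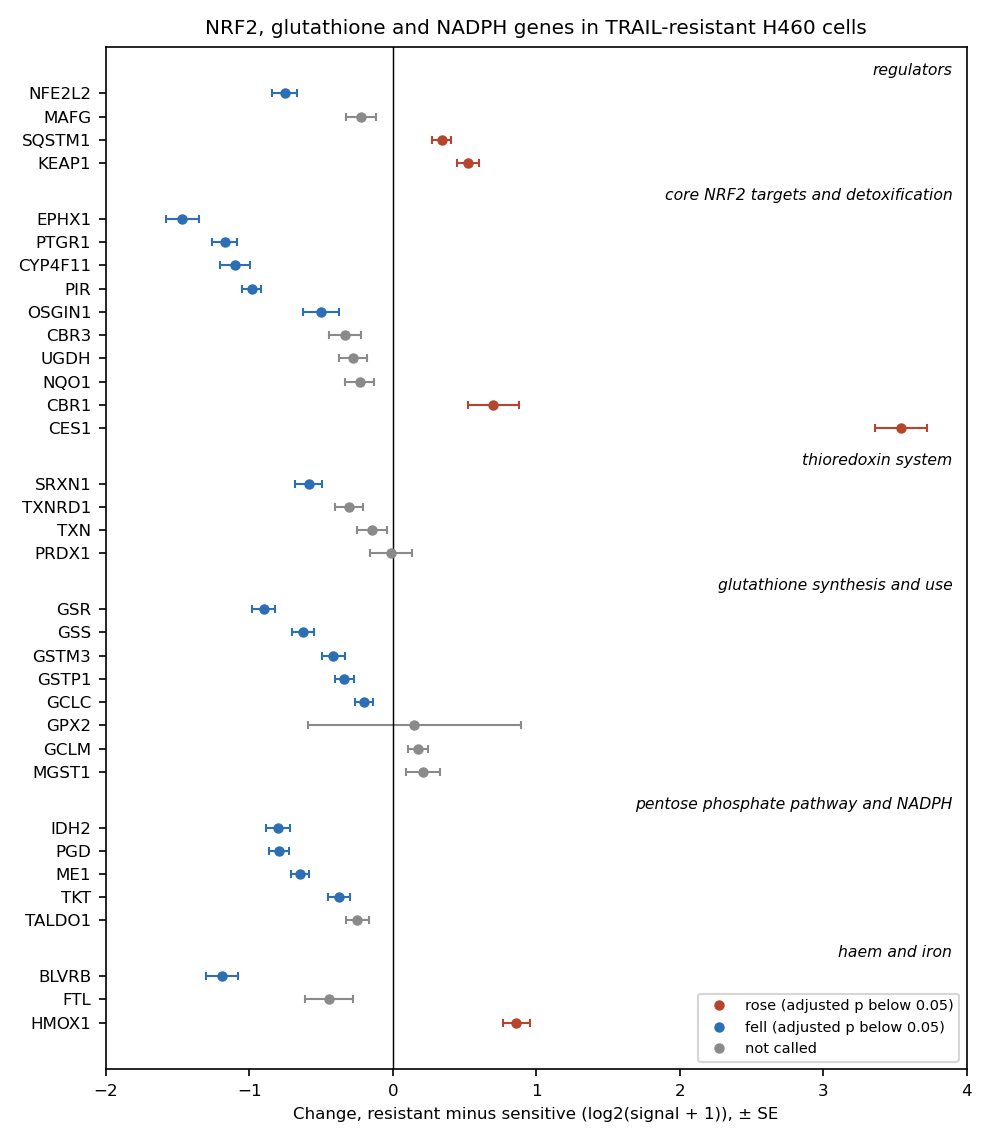
Change of each of the 34 measured members, resistant minus sensitive, in log2(signal + 1) units with the standard error from limma (4 arrays per group), grouped by role; colours mark genes that rose, fell or were not called. All 5 pentose phosphate and NADPH genes lie left of 0, and CES1 is the point farthest to the right at 3.54.

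The members were mostly bright, and genes above the median level were called more often than all genes, though not at the very bright end. Of the 34, 33 had a mean level at or above that of the median probe set (a signal of 31.2). Among all genes above that level, 23.9% fell and 23.3% rose. With a level of at least 9 on the log2 scale, a bound chosen after the values were seen, 14 of 28 members fell and 3 rose, and 24.7% of the 4191 genes of that level fell and 31.1% rose. The median change was -0.34 for those members and 0.04 for those genes. The median SD between arrays was 0.10 in resistant and 0.09 in sensitive cells for the members, against 0.24 and 0.26 for all genes.

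Some measures of the whole arrays moved with the groups or with single arrays. The 3' minus 5' difference of the ACTB control probe sets was 0.10 to 0.13 on resistant and 0.23 on sensitive arrays (log2, exact two-sided permutation p = 0.0286, the smallest that 4 against 4 arrays allow), while that of GAPDH did not separate them (p = 0.686). The highest signal on an array was 17817 to 19994 on resistant arrays 1 to 3, 29134 on resistant array 4, and 26649 to 33357 on sensitive arrays. Their part in the results was not tested. The keratin genes KRT8, KRT18 and KRT19 marked both groups as epithelial with log2 levels of 11.28 or more, but EPCAM and CDH1 lay below the median probe set in both. Of the 6 epithelial markers measured KRT19 and KRT7 fell, and the list's summed signal was 13622 to 16353 on resistant and 17311 to 20119 on sensitive arrays. Of 5 fibroblast markers LUM and PDGFRB fell, and the list's summed signal was 208 to 269.8 on resistant and 303 to 429 on sensitive arrays. LUM and PDGFRB were dim, with mean signals of 5.66 and 28.8 in resistant cells, below the median probe set. In sensitive cells these were 53.6 and 60.6. Of the leukocyte markers 0 of 3 passed, with summed signals of 114 to 135 on resistant and 105 to 133 on sensitive arrays. Of the endothelial markers 0 of 4 passed, with sums of 71 to 105 on resistant and 85.2 to 103 on sensitive arrays. PTPRC, CD3E, VWF, CDH5 and CLDN5 were dim, with group means below the median probe set in both groups. CD14 and PECAM1 lay above it in both groups, and the part of all these markers in the results was not tested.

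The core of the antioxidant response element, TGACNNNGC, was searched on both strands of the window from 250 bases before to 50 after each start site, as RefSeq gives it on GRCh38.p14. A window was held for 28 of the 34 measured members, and 9 of these windows (32.1%) contained the core, against 3702 of 27305 windows of all genes (13.6%) and 14.8% of the windows of the genes compared. It was found in 5 of 15 windows of members that fell, in 1 of 3 of members that rose and in 3 of 10 of members not called. The 6 windows of called members with a match are shown, with the match in capitals. A match read as TGACTCAGC also contains TGACTCA, the motif of AP-1 factors, and this was so for PIR, GSTP1 and ME1. The window of CYP4F11 lies at chr19:15934818-15935117 (minus strand), PIR at chrX:15493284-15493583 (minus), PGD at chr1:10398814-10399113 (plus), CBR1 at chr21:36069774-36070073 (plus), ME1 at chr6:83431002-83431301 (minus) and GSTP1 at chr11:67583562-67583861 (plus).
CYP4F11: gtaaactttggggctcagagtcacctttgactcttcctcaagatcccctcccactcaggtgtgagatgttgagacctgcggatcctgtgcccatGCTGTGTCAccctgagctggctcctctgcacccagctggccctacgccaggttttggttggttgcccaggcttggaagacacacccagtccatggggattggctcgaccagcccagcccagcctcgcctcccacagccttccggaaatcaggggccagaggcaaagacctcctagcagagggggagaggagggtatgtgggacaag
PIR: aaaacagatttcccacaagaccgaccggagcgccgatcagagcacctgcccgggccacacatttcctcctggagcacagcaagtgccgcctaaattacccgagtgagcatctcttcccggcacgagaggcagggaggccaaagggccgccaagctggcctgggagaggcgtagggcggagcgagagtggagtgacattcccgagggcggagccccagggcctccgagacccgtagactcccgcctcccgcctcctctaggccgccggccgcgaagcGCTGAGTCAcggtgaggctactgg
PGD: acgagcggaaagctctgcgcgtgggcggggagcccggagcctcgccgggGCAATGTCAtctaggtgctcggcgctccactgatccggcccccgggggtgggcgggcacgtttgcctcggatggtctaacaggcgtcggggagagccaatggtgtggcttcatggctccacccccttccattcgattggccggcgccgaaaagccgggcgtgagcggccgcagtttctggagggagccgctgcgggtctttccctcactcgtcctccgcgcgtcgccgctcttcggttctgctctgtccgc
CBR1: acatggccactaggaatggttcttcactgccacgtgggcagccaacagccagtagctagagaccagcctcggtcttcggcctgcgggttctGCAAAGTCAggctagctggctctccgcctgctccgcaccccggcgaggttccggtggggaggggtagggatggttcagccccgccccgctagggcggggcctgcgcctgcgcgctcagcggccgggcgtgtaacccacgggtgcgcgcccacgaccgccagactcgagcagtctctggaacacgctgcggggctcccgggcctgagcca
ME1: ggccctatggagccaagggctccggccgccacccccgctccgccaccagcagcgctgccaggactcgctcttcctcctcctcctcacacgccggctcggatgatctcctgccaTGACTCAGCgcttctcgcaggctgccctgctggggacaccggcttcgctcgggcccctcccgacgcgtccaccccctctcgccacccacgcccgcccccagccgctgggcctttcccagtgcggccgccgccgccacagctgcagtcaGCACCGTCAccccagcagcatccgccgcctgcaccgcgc
GSTP1: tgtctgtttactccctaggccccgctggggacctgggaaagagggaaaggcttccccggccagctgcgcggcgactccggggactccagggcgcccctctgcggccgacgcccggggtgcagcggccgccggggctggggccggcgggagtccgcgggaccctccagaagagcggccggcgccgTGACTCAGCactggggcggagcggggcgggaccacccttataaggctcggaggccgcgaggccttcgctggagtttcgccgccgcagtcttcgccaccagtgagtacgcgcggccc
ME1 holds a second match at 12 to 20 bases after the start, and CBR1, the 1 member that rose among these 6, holds its match on the opposite strand at -159 to -151. Among members not called, GCLM has TGACTAAGC at -34 to -26 and GPX2 has TGACTTAGC at -122 to -114, both on the opposite strand. TXNRD1 has TGACTTCGC at -99 to -91, and TGACGGAGC on the opposite strand at -8 to 1. A match is a stretch of letters and was not tested for binding.

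Among the 4 regulators, NFE2L2 was lower and KEAP1 and SQSTM1 were higher in resistant cells. NFE2L2 had signals of 1386, 1539.8, 1559.7 and 1375 on the resistant arrays, against 2218, 2603, 2468 and 2583 on the sensitive arrays. The groups did not overlap, and the lowest sensitive array lay well above the highest resistant array. It fell by 0.75 ± 0.09 (adjusted p = 0.000635), to a mean log2 level of 10.52 ± 0.10 in resistant cells, against 11.27 ± 0.11 in sensitive cells (SD, n = 4). KEAP1, the repressor, had signals of 719, 606, 651 and 658 on resistant arrays and 443, 456, 456 and 470.4 on sensitive arrays. Every resistant array was above every sensitive array. It rose by 0.53 ± 0.07 (adjusted p = 0.00162), and the array measures RNA of the gene, not whether the protein works.

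SQSTM1 encodes p62, an autophagy receptor that binds KEAP1 and is itself an NRF2 target. Its signals were 4393, 4207, 4633 and 4689.7 in resistant and 3538, 3475, 3529 and 3581 in sensitive cells. The groups did not overlap and the sensitive arrays lay close together. The rise of 0.34 ± 0.07 (adjusted p = 0.00662) was seen on the brightest of its 5 probe sets and on none of the other 4, and the average of all 5 changed by -0.087 (adjusted p = 0.549). MAFG, a small MAF partner of NRF2, had signals of 501, 672, 554 and 598 in resistant and 695, 702, 678 and 624 in sensitive cells. These overlapped, and the change of -0.22 ± 0.11 did not pass (adjusted p = 0.167).

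**Figure D2:**
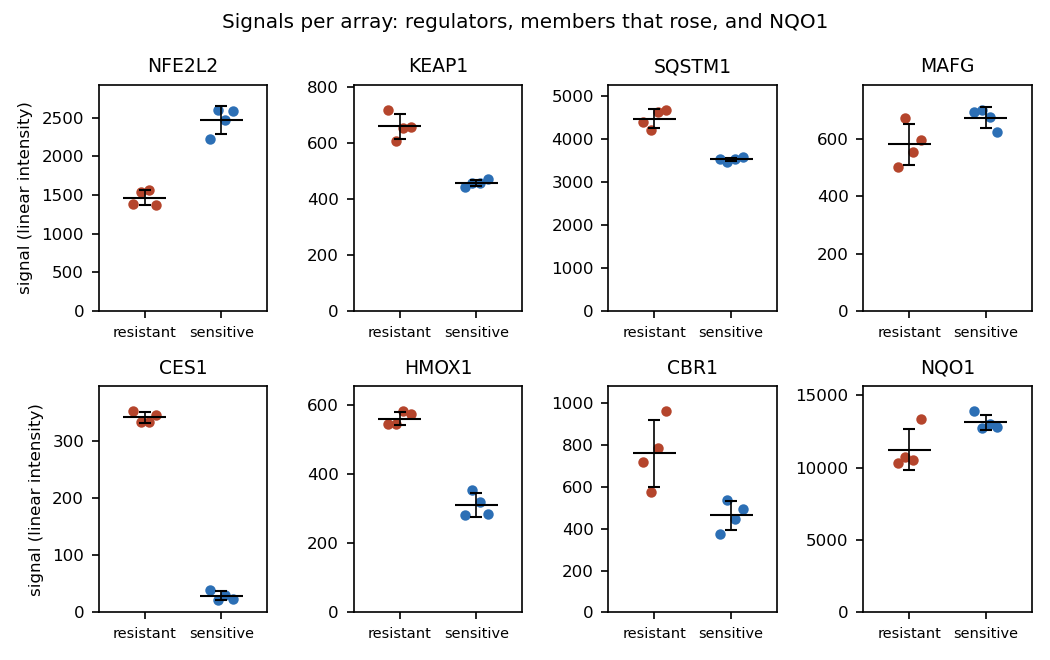
Linear signal on each array (points), with group mean and SD (bars), for the 4 regulators, 3 members that rose and NQO1; resistant left, sensitive right, 4 arrays each. NFE2L2 lies between 1375 and 1560 in resistant cells and between 2218 and 2603 in sensitive cells, and KEAP1 shows the opposite order.

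Among 10 measured core targets and detoxification genes, 5 fell, 2 rose and 3 were not called, with a median change of -0.42. Of all genes, 15.6% fell and 14.7% rose. EPHX1, the microsomal epoxide hydrolase, had signals of 795, 747, 833 and 772 in resistant cells and 2615, 1874, 2228 and 2044 in sensitive cells. The resistant arrays lay close together and far below all sensitive arrays. EPHX1 fell by 1.47 ± 0.11, a 2.76-fold lower level (adjusted p = 0.000118). PTGR1 encodes a reductase of prostaglandins and leukotriene B4. Its signals were 4462, 4529, 4312 and 5261 in resistant cells, against 11021, 10095, 10442 and 10159 in sensitive cells. Resistant array 4 was the highest of its group, and no resistant array came near the sensitive ones. PTGR1 fell by 1.17 ± 0.08 (adjusted p = 8.98e-05), and 3 of 3 probe sets fell, with changes of -2.07 to -0.64. 

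CYP4F11 encodes a cytochrome P450 of fatty acid hydroxylation. It had signals of 225, 179.6, 197 and 201 in resistant and 395, 397, 452 and 479.6 in sensitive cells, with no overlap. It fell by 1.10 ± 0.10 (adjusted p = 0.000275). PIR, or pirin, is an iron-binding nuclear protein and a known NRF2 target. Its signals were 1289, 1242, 1265 and 1236 in resistant cells, against 2391, 2627, 2411 and 2533 in sensitive cells. The spread within each group was small beside the gap. The fall was 0.98 ± 0.06, a level 1.98-fold lower (adjusted p = 5.89e-05). OSGIN1, an oxidative stress-induced growth inhibitor, fell by 0.50 ± 0.13 (adjusted p = 0.0224), with signals of 97.6 to 140.1 in resistant and 155 to 175 in sensitive cells. OSGIN1 did not pass without resistant array 4 or sensitive array 1, 2 or 4 (changes of -0.45, -0.49, -0.51 and -0.47, adjusted p up to 0.0602), nor after median centring (-0.43, adjusted p = 0.0661).

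The other called members of this list, 2 in number, rose. CES1, a carboxylesterase that hydrolyses ester drugs and lipids, had signals of 353, 335, 334 and 347 in resistant and 40, 21.8, 30.8 and 24.2 in sensitive cells. The sensitive arrays scattered around the signal of the median probe set (31.2), and the size of the change depends on those dim values. CES1 rose by 3.54 ± 0.18 (adjusted p = 2.24e-05), the largest change of any member. Its probe set carries a suffix for possible cross-hybridisation and no other probe set was named for it. CBR1, a carbonyl reductase, had signals of 721, 577, 785 and 962 in resistant cells, against 377, 535, 447 and 495 in sensitive cells. The groups did not overlap, but the lowest resistant array lay close to the highest sensitive one. It rose by 0.70 ± 0.18 (adjusted p = 0.0229) and did not pass without resistant array 1 or 3 or sensitive array 1 or 3 (changes of 0.72, 0.68, 0.61 and 0.69, adjusted p up to 0.0610).

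The 3 members of this list not called had lower estimates in resistant cells. NQO1, the quinone reductase often used as the readout of NRF2, had signals of 10363 to 13349 in resistant and 12743 to 13916 in sensitive cells and changed by -0.23 ± 0.10 (adjusted p = 0.133). Resistant array 4 reached into the sensitive range, and without it NQO1 passed with a change of -0.31 (adjusted p = 0.0158). UGDH, which makes UDP-glucuronate, had signals of 1833 to 2247 in resistant and 2274 to 2785 in sensitive cells, without overlap, and changed by -0.28 ± 0.10 (adjusted p = 0.0762). CBR3, a relative of CBR1 that lies near it on chromosome 21, changed by -0.33 ± 0.11 (adjusted p = 0.0583), with signals of 467 to 539 in resistant and 559.9 to 739.8 in sensitive cells. It passed as lower in 7 of 19 alternative settings, among them the fit without sensitive array 1 (adjusted p = 0.0419). The estimate of CBR3 thus had the opposite sign to that of CBR1, and whether the changes differ was not tested.

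Of 8 measured glutathione genes, 5 fell and 0 rose, where 15.6% and 14.7% of all genes did. The other 3 were not called, the median change was -0.27, and the enzyme that recycles glutathione fell furthest. By unadjusted limma p below 0.05, 1 of the 8 was higher and 5 were lower, where 18.7% and 20.7% of all genes were. GSR, the reductase that regenerates glutathione with NADPH, had signals of 1049, 1054, 1147 and 1156 in resistant and 2166, 1876, 2167 and 2013 in sensitive cells. All resistant arrays lay below all sensitive arrays by a wide gap. GSR fell by 0.90 ± 0.08 (adjusted p = 0.000212), and its other probe set fell too. GSS, glutathione synthetase, catalyses the last step of glutathione synthesis. Its signals were 796, 712, 730.2 and 805 in resistant cells, against 1181, 1132, 1141 and 1239 in sensitive cells. The groups did not overlap, and both of its probe sets fell, with 0.63 ± 0.07 for the one used (adjusted p = 0.000740).

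The subunits of glutamate-cysteine ligase, the rate-limiting enzyme of glutathione synthesis, had estimates of opposite sign, and whether they differ was not tested. GCLC, the catalytic subunit, fell by 0.20 ± 0.06 (adjusted p = 0.0430), but it did not pass when any 1 of the 8 arrays was left out (adjusted p of 0.0701 to 0.0976), nor after median centring (-0.13, adjusted p = 0.275). GCLM, the modifier subunit, had signals of 2929 to 3056 in resistant and 2431 to 2813 in sensitive cells and changed by 0.17 ± 0.07 (adjusted p = 0.111). Its resistant arrays all lay above its sensitive arrays, and the change did not pass. GSTP1 and GSTM3, transferases that join glutathione to electrophiles, fell by 0.34 ± 0.07 (adjusted p = 0.00715) and 0.41 ± 0.08 (adjusted p = 0.00728). The GSTM3 call came from 1 of 2 probe sets, with mean signals of 2928 in resistant and 3910 in sensitive cells. The other, which has no cross-hybridisation suffix, was much dimmer (95.2 and 97.0) and changed by 0.0055 (adjusted p = 0.991). MGST1, a membrane-bound transferase, changed by 0.21 ± 0.12 (adjusted p = 0.243). It passed as higher after quantile normalization (0.29, adjusted p = 0.0263), with its 5 probe sets averaged (0.44, adjusted p = 0.00748) and on a probe set with no suffix (0.36, adjusted p = 0.0348). GPX2, a glutathione peroxidase of epithelia, was dim, with signals of 1.79 to 21.3 in resistant and 5.69 to 18.8 in sensitive cells, all below that of the median probe set, and changed by 0.15 ± 0.74 (adjusted p = 0.912).

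In the thioredoxin system 1 of 4 members fell, a share near the 23.9% of genes above the median probe set that fell. SRXN1, sulfiredoxin, repairs over-oxidised peroxiredoxins. It had signals of 3837, 3793, 3793 and 4577 in resistant and 6467, 5412, 6066 and 6029 in sensitive cells. Resistant array 4 was the highest of its group and still lay below every sensitive array. SRXN1 fell by 0.59 ± 0.10 (adjusted p = 0.00323). TXNRD1, the thioredoxin reductase of the cytosol, had signals of 8637 to 10818 in resistant and 11149 to 12719.6 in sensitive cells, with no overlap, and its change of -0.30 ± 0.10 missed the threshold (adjusted p = 0.0543). Without resistant array 4 it passed, with -0.37 (adjusted p = 0.0181), and averaged with its other, dim probe set it changed by 0.26 (adjusted p = 0.721). Thioredoxin itself, TXN, changed by -0.14 ± 0.10 (adjusted p = 0.353) and the peroxiredoxin PRDX1 by -0.01 ± 0.15 (adjusted p = 0.973), and for both the groups overlapped.

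Very bright genes fell more often than they rose. Of the 167 genes with a mean log2 level of at least 13, 19.8% fell and 4.19% rose, and their median change was -0.29, which quantile normalization moved to -0.01. NQO1, TXNRD1, TXN, PRDX1, TKT and FTL lie in this range, and for each of these 6 the highest resistant signal was on array 4, which also had the highest single signal of its group. After quantile normalization NQO1 changed by 0.032 (adjusted p = 0.751), TXNRD1 by -0.12 (adjusted p = 0.189) and TXN by 0.11 (adjusted p = 0.298). PRDX1 then passed as higher, with 0.34 (adjusted p = 0.00316). Cyclic loess normalization, added after seeing the data, gave another picture. With it TXNRD1 (-0.26, adjusted p = 0.022) and FTL (-0.38, adjusted p = 0.0349) passed as lower and TKT still fell. NQO1, TXN and PRDX1 did not pass with it. No direction is given for these 6 genes beyond the scaling in which it was found.

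**Figure D3:**
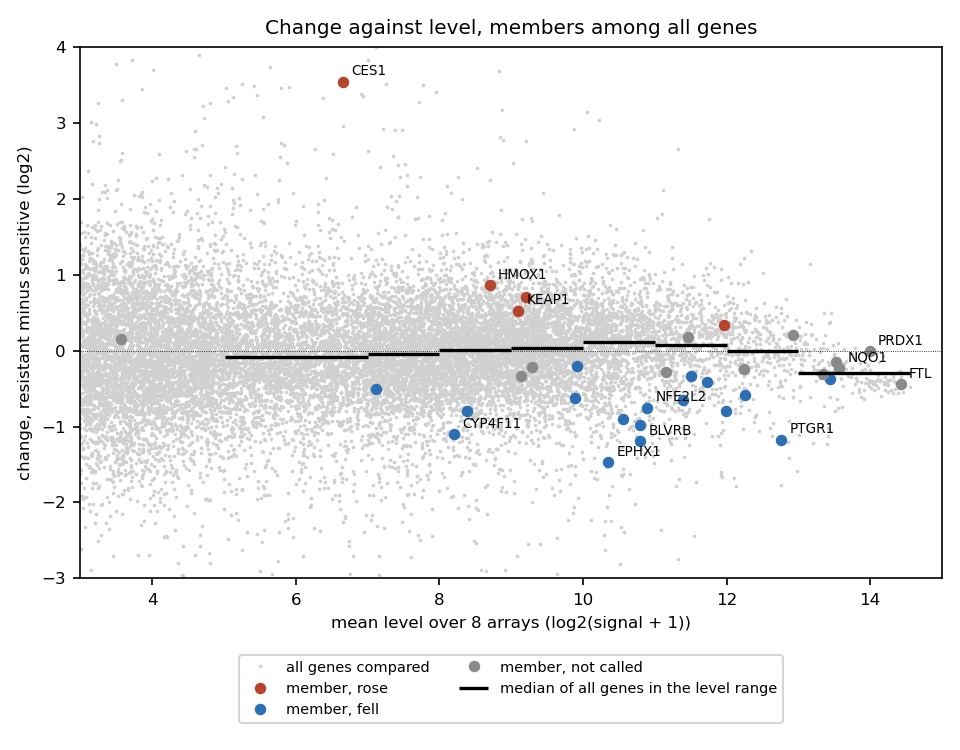
Change, resistant minus sensitive (log2), against the mean log2(signal + 1) level over 8 arrays, for all genes (grey) and the members (coloured by call), with the median of all genes in each level range as a black line; genes outside the axis ranges are not drawn. Above a level of 13 the median of all genes lies at -0.29.

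All 5 pentose phosphate and NADPH genes had lower estimates in resistant cells, where 52.5% of all genes had. Of the 5, 4 fell, where 15.6% of all genes did, and their median change was -0.65. PGD, 6-phosphogluconate dehydrogenase, makes NADPH in the oxidative branch of the pentose phosphate pathway. It had signals of 3026, 2962, 3387 and 3025 in resistant and 5357, 5300.0, 5387 and 5403 in sensitive cells. The sensitive arrays were almost identical and all lay above the resistant arrays. PGD fell by 0.79 ± 0.07 (adjusted p = 0.000194), while the average of its 3 probe sets, 2 of them dim, changed by 0.034 (adjusted p = 0.958). ME1, the cytosolic malic enzyme, is another source of NADPH. Its signals were 2047, 2186, 2186 and 2209 in resistant cells, against 3394, 3406, 3329.8 and 3384 in sensitive cells. Within each group the arrays differed little. ME1 fell by 0.65 ± 0.06 (adjusted p = 0.000275), and 2 of its 3 probe sets passed, the dimmest being the one that did not.

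IDH2, the NADP-dependent isocitrate dehydrogenase of mitochondria, had signals of 240.1, 260.0, 264 and 244 in resistant and 417, 406, 487 and 446 in sensitive cells, with no overlap. It fell by 0.80 ± 0.08 (adjusted p = 0.000408), but its other, dimmer probe set did not pass (-0.37 when used for the gene, adjusted p = 0.114). TKT, transketolase, and TALDO1, transaldolase, belong to the non-oxidative branch. TKT had signals of 9761, 10007, 8829 and 10578 in resistant and 12681, 12800.1, 12359 and 12786 in sensitive cells, and the groups did not overlap. It fell by 0.37 ± 0.08 (adjusted p = 0.00855), but not after quantile normalization (-0.15, adjusted p = 0.206). Another, much dimmer TKT probe set rose, with a change of 0.56 (adjusted p = 0.00235 when used for the gene). TALDO1 had signals of 4202 to 4699.8 in resistant and 4878 to 5743 in sensitive cells, without overlap, and its change of -0.25 ± 0.08 was not called (adjusted p = 0.0558). TALDO1 passed as lower in 5 of 18 alternative settings, among them quantile normalization (-0.25, adjusted p = 0.0401).

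**Figure D4:**
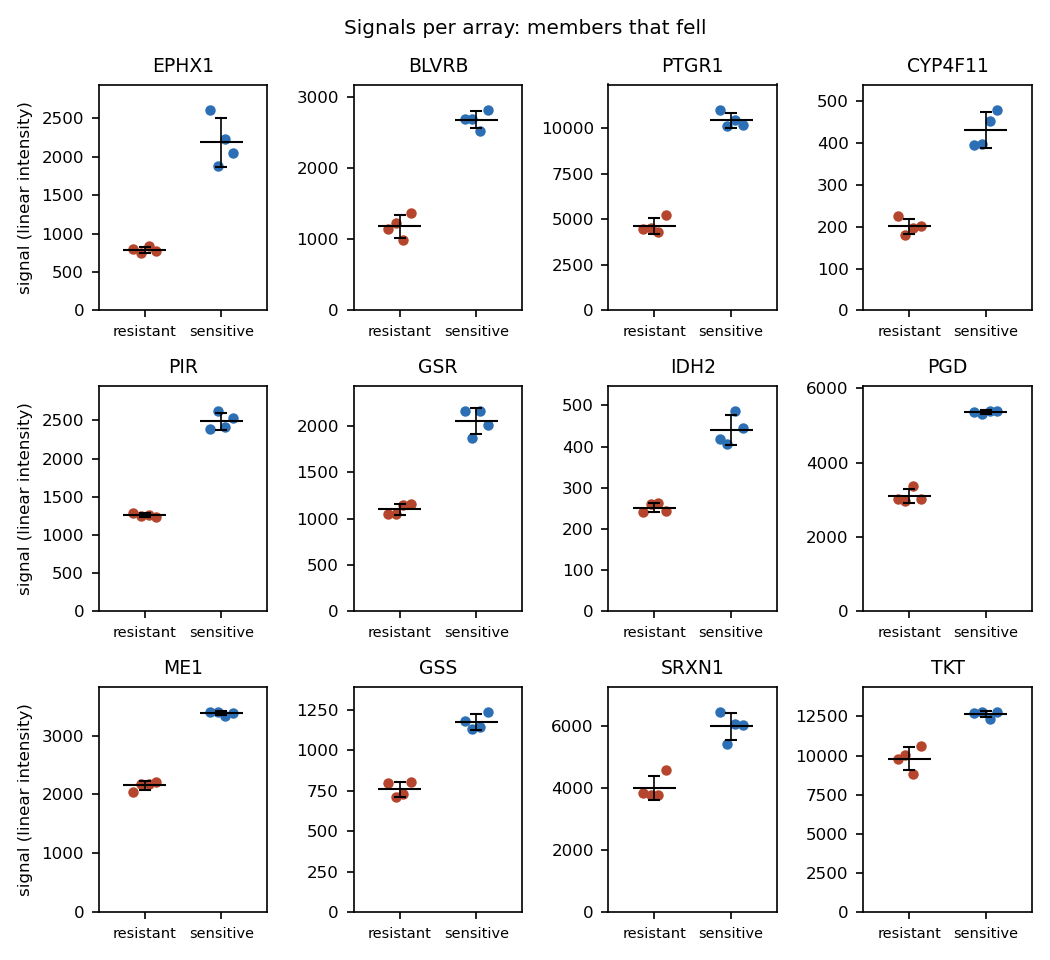
Linear signal on each array (points), with group mean and SD (bars), for 12 members that fell; resistant left, sensitive right, 4 arrays each. In every panel all resistant arrays lie below all sensitive arrays, with the narrowest sensitive spread relative to the mean for PGD and ME1.

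Of 3 measured haem and iron members, 1 rose, 1 fell and 1 was not called, where 14.7% of all genes rose and 15.6% fell. HMOX1, haem oxygenase, opens the haem ring to biliverdin. It had signals of 544, 543, 582 and 572 in resistant and 281, 354, 318 and 283 in sensitive cells. All resistant arrays lay above all sensitive arrays. HMOX1 rose by 0.86 ± 0.09, a level 1.82-fold higher (adjusted p = 0.000508). BLVRB, a biliverdin and flavin reductase, had signals of 1143, 1232, 985 and 1378 in resistant cells, against 2690.3, 2690.3, 2532 and 2828 in sensitive cells. The highest resistant array lay far below the lowest sensitive array. BLVRB fell by 1.19 ± 0.11 (adjusted p = 0.000273). FTL, the ferritin light chain that stores iron, had signals of 15834 to 26138 in resistant and 23723 to 29393 in sensitive cells. Resistant array 4 lay within the sensitive range, and the change of -0.44 ± 0.17 did not pass (adjusted p = 0.0940). Without that array it passed with -0.60 (adjusted p = 0.00683), and after quantile normalization it was -0.018 (adjusted p = 0.863). The FTL probe sets carry a suffix for possible cross-hybridisation, and ferritin has near-identical pseudogenes.

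At the level of probe sets, 23 of the 67 that belong to members fell (34.3%) and 7 rose (10.4%), where 10.4% and 9.13% of all probe sets did. In this fit, with adjustment over 54613 probe sets, NFE2L2, PTGR1, GSR, GSS, TKT and ME1 each had at least 2 probe sets that fell. TKT was the 1 member with probe sets that passed in opposite directions. MGST1 had 5 probe sets, all with higher estimates in resistant cells, of which 1 rose.

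**Figure D5:**
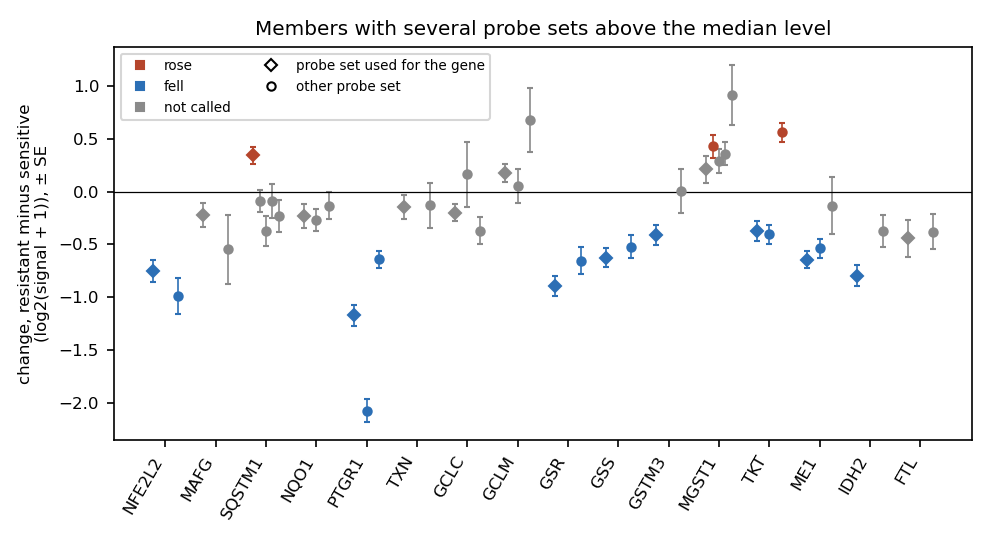
Change of each probe set (resistant minus sensitive, log2(signal + 1), ± SE, 4 arrays per group) for members with several probe sets above the median level; diamonds mark the probe set used for the gene, and colours give the call after adjustment over all probe sets, in which GCLC had none. The 3 PTGR1 probe sets all lie below 0, and TKT has points on both sides of 0.

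Of 105 other genes of these pathways, listed by role, 99 were measured, and 42 fell (42.4%) and 10 rose (10.1%), where 15.6% and 14.7% of all genes did. This list too was chosen with earlier results known. Control genes of NRF2 were among them. MAFF, a small MAF protein, fell by 1.71 ± 0.08 (adjusted p = 1.54e-05), and BACH1, a repressor that competes with NRF2 at the same elements, by 1.57 ± 0.12 (adjusted p = 9.98e-05). NFE2L1, the NRF2 relative that controls proteasome genes, fell by 1.17 ± 0.11 (adjusted p = 0.000276). CUL3, the ligase scaffold that KEAP1 binds, rose by 0.77 ± 0.08 (adjusted p = 0.000412). RBX1, the ring subunit of that ligase, rose by 0.46 ± 0.07 (adjusted p = 0.00274). RBX1 is named after its value was seen. When a gene's probe sets were averaged, BACH1 (-0.25, adjusted p = 0.323) and CUL3 (0.58, adjusted p = 0.257) did not pass.

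Among 16 other NRF2 targets, 9 fell and 0 rose, where 15.6% and 14.7% of all genes did. By unadjusted limma p below 0.05, 11 were lower and 0 higher, where 20.7% and 18.7% of all genes were. TRIM16, a ubiquitin ligase, fell by 1.08 ± 0.11 (adjusted p = 0.000410) and AKR1C3, an aldo-keto reductase of steroids and prostaglandins, by 0.93 ± 0.09 (adjusted p = 0.000272). AKR1B10, another aldo-keto reductase, had the largest fall of this list and changed by -4.04 ± 0.09 (adjusted p = 1.74e-06). The AKR1B10 probe set carries a suffix for possible cross-hybridisation, and no other probe set was named for this gene. The transporter ABCC3 changed by -1.97 ± 0.19 (adjusted p = 0.000300), and by -3.08 on its probe set that lacks a cross-hybridisation suffix. SLC7A11, the cystine transporter that feeds glutathione synthesis, changed by -0.06 ± 0.06 (adjusted p = 0.525) and was not called. It is named after its value was seen.

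Among 33 other glutathione genes, 13 fell (39.4%) and 5 rose (15.2%), where 15.6% and 14.7% of all genes did. CHAC1, which degrades glutathione, fell by 2.50 ± 0.18 and the peroxidase GPX3 fell by 1.90 ± 0.07 (adjusted p = 8.17e-05 and 6.65e-06). OPLAH, which returns oxoproline to glutamate, fell by 1.10 ± 0.22 and the transferase GSTZ1 fell by 1.02 ± 0.09 (adjusted p = 0.00859 and 0.000174). The 5 that rose, named after their values were seen, were GPX1, GLRX5, CHAC2, GLRX3 and GLRX2, by 0.40 to 0.78. Of 10 other thioredoxin and peroxiredoxin genes, 6 fell and 0 rose, where 15.6% and 14.7% of all genes did. By unadjusted limma p below 0.05 the counts of these 10 genes were the same, where 20.7% of all genes were lower and 18.7% higher. Among them the sestrin gene SESN3 fell by 1.54 ± 0.29 and SESN2 fell by 1.53 ± 0.22 (adjusted p = 0.00592 and 0.00179), and TXNIP, the thioredoxin-binding protein, by 0.64 ± 0.10 (adjusted p = 0.00244). SESN1 fell by 0.40 ± 0.11 (adjusted p = 0.0297), but it did not pass when any of resistant arrays 1, 2 and 3 or sensitive arrays 1, 2 and 3 was left out (changes of -0.41 to -0.33, adjusted p up to 0.0784).

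Of 18 further pentose phosphate and NADPH genes, 7 fell (38.9%) and 1 rose (5.56%), where 15.6% and 14.7% of all genes did. The 1 that rose was MTHFD1, a folate enzyme named after its value was seen, by 0.26 ± 0.07 (adjusted p = 0.0343). IDH1, the cytosolic partner of IDH2, fell by 1.12 ± 0.10 (adjusted p = 0.000213), as did 2 folate enzymes of mitochondria: ALDH1L2 fell by 2.21 ± 0.15 and MTHFD2 fell by 0.81 ± 0.08 (adjusted p = 7.83e-05 and 0.000341). RPE, the ribulose phosphate epimerase, fell by 0.91 ± 0.08 (adjusted p = 0.000158), and changed by -0.59 when its probe sets were averaged. Of 8 other haem and iron genes, 3 fell (37.5%) and 2 rose (25%), against the same shares of all genes. ABCB6, a porphyrin transporter, fell by 1.86 ± 0.07 (adjusted p = 8.85e-06), and SLC40A1, the iron exporter ferroportin, by 1.23 ± 0.13 (adjusted p = 0.000444). With probe sets averaged these changes were -0.69 and -0.77. HMOX2, the constitutive haem oxygenase, rose by 0.59 ± 0.08 and TFRC, the transferrin receptor, by 0.46 ± 0.11 (adjusted p = 0.00103 and 0.0144), but HMOX2 failed on its probe set lacking that suffix (0.14, adjusted p = 0.674) and TFRC failed with probe sets averaged (0.53, adjusted p = 0.0662). Of 5 superoxide and peroxide genes 0 passed, also at an unadjusted limma p below 0.05. The smallest p-values were those of catalase, CAT, with a change of -0.67 ± 0.39 (adjusted p = 0.258), and SOD3, with -0.41 ± 0.33 (adjusted p = 0.419).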

How the data were processed

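RNA of H460 cells, extracted with Trizol and labelled with biotin per the labels' protocols, was measured on 8 Affymetrix arrays. For each array the authors deposited linear intensity signals, for 54675 probe sets including 62 controls. RMA is named in the submitters' processing notes, with no version. The intensity values as deposited do not have that form: they reach below 1, and on every array the mean after trimming 2% at each end is 200, as MAS 5-type signals are scaled, so the summarisation is not settled. Arrays have no depth, and their number limits precision.

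Log2(signal + 1) was used with no further normalization. It understates changes of dim genes, and a common scale per array hides changes in total RNA. Gene names came from GEO's platform annotation of 42898 probe sets (41097 with 1 symbol, 1801 with several, not used by name, and 11777 not listed), updated through gene identifiers to RefSeq, assembly GRCh38.p14. Resistant and sensitive arrays were compared with limma 3.58.1 in R 4.3.3 (lmFit, eBayes) and Benjamini-Hochberg adjustment over all 19775 genes, tested on simulated data. Whole-array measures were compared with exact permutation tests over 70 assignments. Separate cultures are not stated in the labels, and a p-value reflects only the array-to-array spread, possibly technical.

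Members and lists were chosen with earlier results of these data known. The text names all members, gives each array's signal for members called with a change of at least 0.5, for regulators and for members whose probe sets disagree, and names up to 4 called genes of each further list (where none passed, the 2 with the smallest p), with exceptions stated. Alternatives were another pseudocount (16), quantile, median and cyclic loess scaling, other probe set choices, a filter on dim genes, a replicate block, a trended robust prior, array weights and leaving out arrays.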

Additional observations from a re-analysis of the deposited data

Results flagged for a closer look

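In a group of 4 arrays, 1 array can lie far from the other 3 relative to the whole range. This was so for 8 of the 68 gene and group combinations of the members, where chance gives about 1 in 20. Resistant array 4 was high for NQO1, with a signal of 13349 beside 10363 to 10728 on the other resistant arrays, and for SRXN1, with 4577 beside 3793 to 3837. Sensitive array 1 was high for TXNRD1, with 12720 beside 11149 to 11305, for PRDX1, with 18165 beside 15713 to 15865, and for MGST1, with 8134 beside 6848 to 7047. Resistant array 3 was high for PGD, with 3387 beside 2962 to 3026, and resistant array 1 was low for ME1, with 2047 beside 2186 to 2209. For GPX2, resistant array 2 had a signal of 1.79 beside 18 to 21.3, all of them dim.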

How the results depend on the processing

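The 34 member results were recomputed under 17 planned and 2 added alternatives. Leaving out single arrays kept 251 comparisons on their side of the threshold, lost 16 calls and gained 5; the other alternatives kept 314, lost 15, gained 32 and reversed 6, counted where either value was called. Of the members that fell, 10 of 17 passed in every alternative that could be run, and of those that rose, 3 of 5. The reversals were SQSTM1 with the mean of all probe sets (-0.087) and without suffixed probe sets (-0.23), PRDX1 after quantile normalization (0.34), GSTM3 (0.0055) and TKT (0.56) without suffixed probe sets, and PGD with the mean of all probe sets (0.034). Each of the probe set changes follows from taking other probe sets, and for PRDX1 the cause was not tested. Leaving out 1 array gave 4 to 5 members that rose, 15 to 19 that fell, 9 to 12 other pathway genes that rose and 32 to 43 that fell. In those fits 11.9% to 13.9% of all genes rose and 12.8% to 15.6% fell. Without suffixed probe sets, 4 other genes rose and 26 fell of 73 measured, and 5 members rose and 12 fell of 28, where 11.6% of genes rose and 12.8% fell. Median centring gave 5 rises and 15 falls among members, while over all genes 16.2% rose and 12.3% fell. Quantile normalization gave 7 and 17 (15.4% and 14.7% of all genes), and cyclic loess, added after seeing the data, 5 and 20 (15.6% and 15%). Without resistant array 4 and sensitive array 1, also added, there were 4 and 19 (13.5% and 14.5% of all genes). With the replicate numbers as a block, 4 members rose and 14 fell (10.6% and 11.5% of all genes), and GSTP1 was among those not called (adjusted p = 0.0506). The numbers did not pair the arrays: deviations of same-numbered arrays correlated between -0.03 and 0.01. Weak signals limit GPX2 and the sensitive level of CES1.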
